A study of Arabidopsis thaliana with 4 samples.

Results

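A block of consecutively numbered probe sets on an Affymetrix Arabidopsis array, just before the plastid ones that start with psaC, reads the mitochondrial genome, and its signals are described here in wild-type (WT) and ced1 seedlings after osmotic stress. Its members are set by probe set number alone, though earlier results of these data were known, and it holds 31 of the 22746 probe sets in the table. RNA came from whole seedlings 16 days old that had spent 6 h on 40% polyethylene glycol (PEG), which draws water out of the tissue. Both genotypes carry the gl1-Col0 background and both received PEG, so no untreated level was analysed here. WT gave 2 arrays and ced1 gave 2 arrays, each titled as biological replicate 1 or 2. The mutation of ced1 is known to lie in BODYGUARD, which acts in building the cuticle, and the mutant is known for weak stress induction of NCED3, an enzyme gene of abscisic acid synthesis. No single-gene probe set names either gene here, so the genotype labels were not checked by the mutated gene. The comparison asks which transcripts differ between the genotypes under osmotic stress.

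Plant mitochondria keep a small genome of their own that codes for core subunits of the respiratory chain and ATP synthase, for parts of the machinery that attaches haem to cytochrome c, for some ribosomal proteins and for a maturase that helps to splice introns. The other subunits are coded in the nucleus and imported, so each respiratory complex is built from the products of both genomes. Plant mitochondrial transcripts are edited from C to U, many contain introns, and a poly(A) tail marks many of them for decay. Standard Affymetrix labelling starts from poly(A) tails, so a signal here is a measure of labelled RNA, and signals of mitochondrial genes are not set against those of nuclear genes. In a whole-seedling sample, differing numbers of mitochondria, or of cells that contain many of them, cannot be told apart from differing RNA per mitochondrion.

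The probe table of the platform names a single gene for 10 of the 31 probe sets and holds no entry for the other 21, given here by their probe set IDs. Of the 10 names, 7 match a mitochondrial gene in the RefSeq gene table of assembly TAIR10.1 by symbol or synonym. They are nad4L, nad7 and nad4, subunits of NADH dehydrogenase (complex I), ccb382 and ccb203, now ccmFN1 and ccmFN2, which form part of the haem lyase of cytochrome c maturation, matR, the intron maturase, and orfX, now mttB, a relative of the bacterial twin-arginine transporter TatC. Along the block these 7 names follow the mitochondrial map in 1 direction, from nad4L to nad4, for 7 of 7. The genes cox3, ccmC, rps12, nad3, atp9, atp6, atp8, nad5 and rpl2 lie between nad4L and nad4 on that map and are not named by a probe set of the block.

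The remaining names, AT2G07751, AT2G07674 and AT2G07776, are 3 loci of nuclear chromosome 2, where Col-0 carries a large inserted copy of the mitochondrial genome. AT2G07751 and the mitochondrial gene nad3 are both 357 bp long in the gene table, and the probe set of AT2G07751 stands between those of ccb203 and nad7 as nad3 does on the map. Transcripts of the nuclear copy and of the organelle cannot be told apart by probes where their sequences are near-identical, so the values of these 3 loci are uncertain as to their genome. Of the 31 probe sets, 8 have the suffix _s_at, which marks probes shared by several transcripts.

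Most of the block gave weak signals. On every array 244929_at, the probe set of nad4, was the strongest of the 31, while the weakest lay between 1 and 1.8. The median of the 31 signals was 14.9 on WT array 1, 33.1 on WT array 2, 45 on ced1 array 1 and 66.1 on ced1 array 2. These medians stood at the 14.8th, 20.7th, 25.9th and 31.5th percentile of all signals on their arrays. Both ced1 arrays thus had the higher median, and the arrays of 1 genotype also differed. The summed signal of the block was 0.0101% and 0.0141% of the total on the WT arrays and 0.0200% and 0.0205% on the ced1 arrays.

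A mean signal of about 102.7, the 40th percentile of all probe sets, was required for a test, and 9 of the 31 members passed. The other 22 members stayed below it, a share of 71.0% against 40.0% of all probe sets. All 4 signals lay under 50 for 14 members, a range in which a signal cannot be told from absence without detection calls, which were not used here. The tested member nearest to the limit was nad4L, at 102.9, and the untested member nearest to it was matR, at 76.3. Of the 9 tested members, 4 had a mean WT signal under the limit and passed it through their ced1 signals, so counts over these 9 are given as a description.

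**Figure D1:**
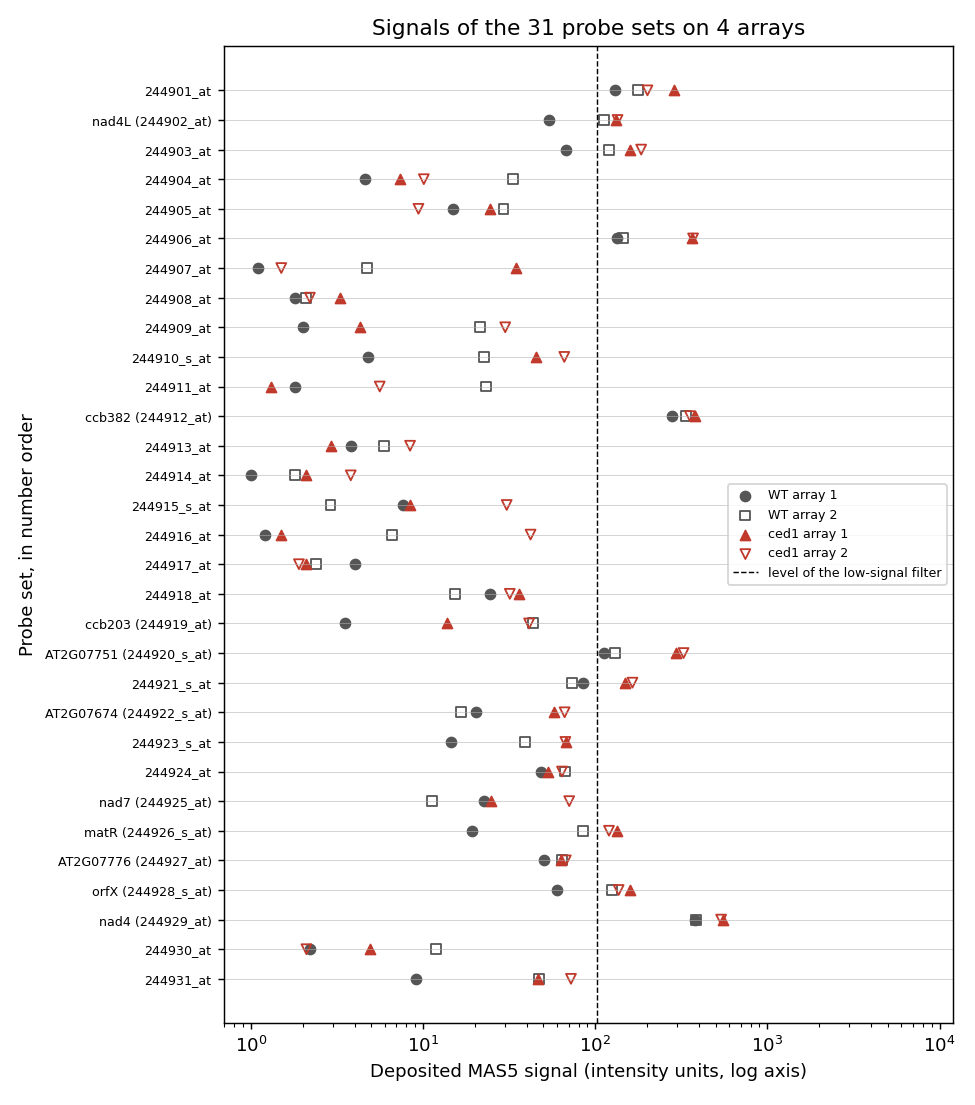
Deposited MAS5 signal (log axis) of each of the 31 probe sets on WT arrays 1 and 2 and ced1 arrays 1 and 2, 1 point per array, with the level of the low-signal filter as a dashed line. A large part of the block lies left of that line, and 9 members have a mean at or above it.

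Over the whole block the ced1 signals were more often the higher ones. Mean ced1 signal exceeded mean WT signal for 26 of the 31 members, against 54.2% of all probe sets. Both ced1 signals lay above both WT signals for 18 members, below both for 1, and overlapped with them for 12. Among all 22746 probe sets, 34.5% had both ced1 signals above and 27.4% both below. With the signals turned into ranks within each array, which does not depend on scaling, both ced1 ranks lay above both WT ranks for 16 members and below for 1, against 31.5% and 30.9% of all probe sets. With equal array medians 12 members were above and 3 below, against 25.5% and 37.8% of all probe sets. WT array 1 was the lowest array of the block in its median signal, and WT array 2 exceeded it for 25 of the 31 members, against 58.1% of all probe sets. The WT arrays thus also stood apart from each other on the block.

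Of the 9 tested members, 4 rose in ced1 and none fell (limma, Benjamini-Hochberg adjusted p under 0.05 over 13648 probe sets), and 5 did not pass. Over all tested probe sets 23.2% were higher and 19.2% lower. The median log2 difference (ced1 minus WT, on the log2(signal + 16) scale) of the 9 was 0.66, against 0.07 over all tested probe sets and 0.11 over the 6945 tested probe sets with mean signals between 102.9 and 457.1, the range of these members. In that range 21.5% of probe sets were higher and 13.4% lower. The counts and the median of the 9 are a description only. Among the 9 are the 4 that passed the limit through their ced1 signals, and the called 244921_s_at is one of those.

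The complex I genes of the block are subunits of the membrane arm (nad4 and nad4L) and of the matrix arm (nad7). The probe set of nad4, which codes for a proton-pumping subunit, gave signals of 377.4 and 386.8 in WT and 553.9 and 538.8 in ced1. Arrays of each genotype lay close together, and both ced1 signals were above both WT signals. Means were 382.1 ± 6.65 (SD, n = 2) for WT and 546.4 ± 10.7 for ced1, which is a log2 difference of 0.50 ± 0.15 (SE) with adjusted p = 0.0324. This call depended on the scaling and on single arrays: with equal array medians nad4 differed by 0.33 (adjusted p = 0.119), and without ced1 array 1 or ced1 array 2 it no longer passed, at 0.48 and 0.52 (adjusted p = 0.258 and 0.227).

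The small subunit gene nad4L had signals of 54.1 and 112 in WT and 131.9 and 134.8 in ced1. The ced1 arrays agreed within a few units while the WT arrays were far apart, with WT array 2 close to ced1. Its log2 difference of 0.66 ± 0.32 did not pass (adjusted p = 0.140), and it was 0.22 without WT array 1 (adjusted p = 0.493) and 1.09 without WT array 2 (adjusted p = 0.00770), which passed. The gene nad7 had weak signals of 22.5 and 11.2 in WT and of 24.9 and 70.6 in ced1 and was not tested. Its ced1 signals were above those of WT, by little on ced1 array 1.

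No cytochrome c maturation gene of the block passed the test. The probe set of ccb382 was the second strongest of the block by mean level, with signals of 277.6 and 335.3 in WT and 378.2 and 355 in ced1. The lower ced1 signal exceeded the higher WT signal by less than the gap between the WT arrays. The log2 difference was 0.25 ± 0.17 (adjusted p = 0.274), which was the smallest among the 9 tested members. The gene ccb203, which codes for another part of the same protein, gave 3.5 and 43.3 in WT and 13.7 and 41.3 in ced1, with groups that overlapped.

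The intron maturase gene matR had signals of 19.3 and 85.4 in WT and of 133.1 and 120.2 in ced1. It was below the limit for a test because of WT array 1, and its ced1 signals were above both WT signals. In a fit without the low-signal filter its log2 difference was 1.25 ± 0.51 (adjusted p = 0.142). The transporter gene orfX had signals of 60.1 and 124.7 in WT and of 158.5 and 136.8 in ced1. Its log2 difference of 0.66 ± 0.32 did not pass (adjusted p = 0.141). As for nad4L, WT array 2 stood near the ced1 arrays, and the difference was 0.21 without WT array 1 (adjusted p = 0.492) and 1.10 without WT array 2 (adjusted p = 0.00590), which passed.

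Of the loci named on chromosome 2, AT2G07751 rose in ced1. Its signals were 112.4 and 130 in WT and 293.6 and 325.9 in ced1. Both genotypes were tight and far apart. Means were 121.2 ± 12.4 (SD, n = 2) for WT and 309.8 ± 22.8 for ced1, which is a log2 difference of 1.25 ± 0.19 (SE, adjusted p = 0.00259), or 2.38-fold. AT2G07674 had weak signals of 20.2 and 16.7 in WT and 57.5 and 66.4 in ced1, under the limit for a test. Without the low-signal filter it passed, with a log2 difference of 1.18 ± 0.29 (adjusted p = 0.0334), in a fit where 12.2% of all 22746 probe sets were higher and 10.4% lower. AT2G07776 lay at 50.1 and 64.1 in WT and 63.2 and 67.5 in ced1, and its groups overlapped.

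Among the 9 tested members the largest difference belonged to 244906_at, for which the probe table lists no gene. Its signals were 133.6 and 145.7 in WT and 363.5 and 370.3 in ced1. The arrays of each genotype lay close together, far from those of the other genotype. Means were 139.7 ± 8.56 (SD, n = 2) for WT and 366.9 ± 4.81 for ced1, which is a log2 difference of 1.30 ± 0.18 (SE, adjusted p = 0.00155), or 2.46-fold. It passed without each array in turn, in a range of 1.24 to 1.36, as did AT2G07751, in a range of 1.16 to 1.34.

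The neighbour of AT2G07751 in number, 244921_s_at, rose from 84.9 and 73.6 in WT to 148.7 and 164.5 in ced1. Its log2 difference was 0.86 ± 0.23 (adjusted p = 0.0206), from a mean WT signal under the limit. It did not pass without ced1 array 1, at 0.92 (adjusted p = 0.116), without ced1 array 2, at 0.79 (adjusted p = 0.179), or without the low-signal filter (adjusted p = 0.0554). The first probe set of the block, also unlisted, had signals of 129.5 and 176.9 in WT and 288.6 and 201.1 in ced1 and did not pass, at 0.62 ± 0.25 (adjusted p = 0.0827). Its ced1 arrays were further apart than its WT arrays. For 244903_at the signals were 68 and 120.9 in WT and 158.6 and 184.9 in ced1, a difference of 0.80 ± 0.29 (adjusted p = 0.0576). Its WT array 2 again lay between WT array 1 and the ced1 arrays, and both this probe set and the first one of the block passed without WT array 2 (1.16 and 0.82, adjusted p = 0.00291 and 0.0128). Without WT array 1 neither did, at 0.45 and 0.41 (adjusted p = 0.132 and 0.156).

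**Figure D2:**
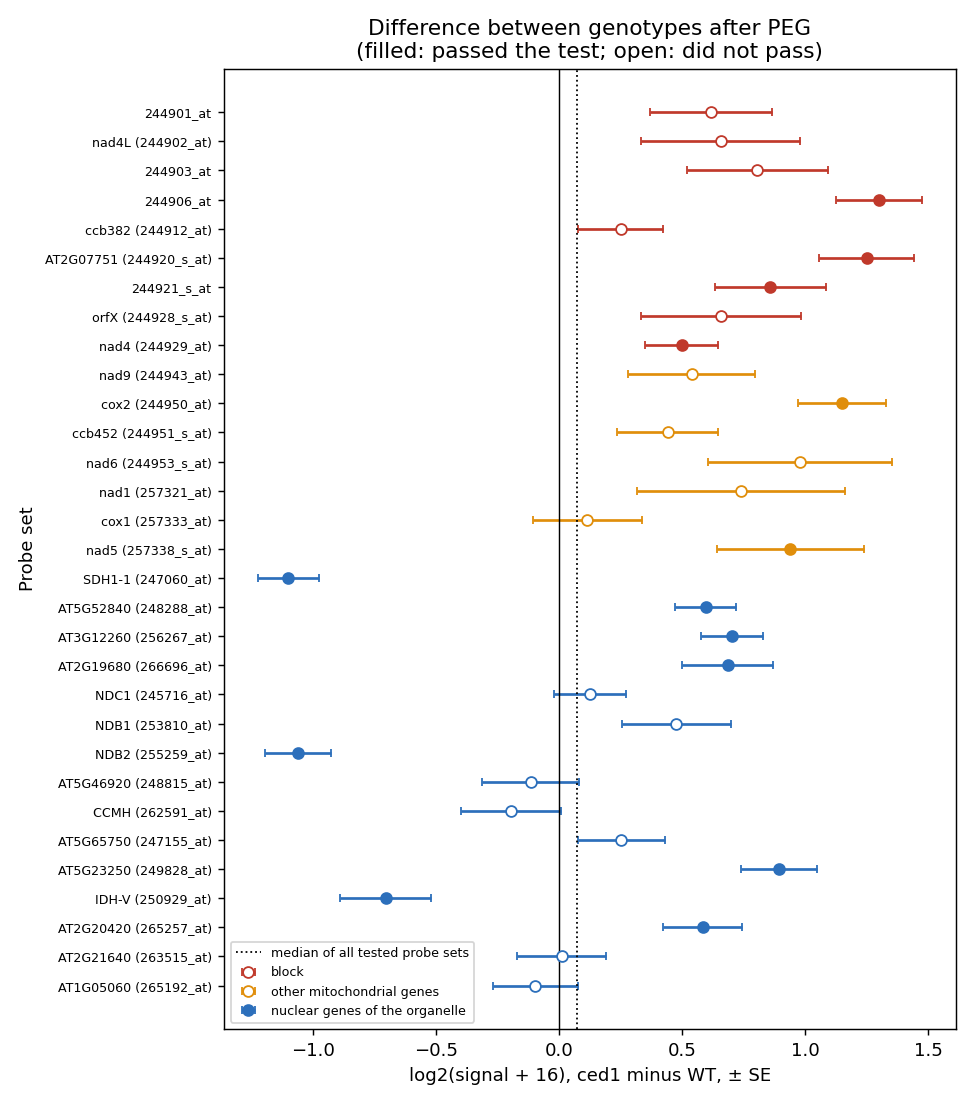
Log2 difference, ced1 minus WT, with its SE for the 9 tested members of the block, the 7 tested probe sets of other mitochondrial genes and the nuclear genes chosen by rule, filled where the test was passed, with the median of all tested probe sets as a dotted line. All points of the block and of the other mitochondrial genes lie right of 0 under the deposited scaling, from 0.11 for cox1 to 1.30 for 244906_at. The nuclear genes chosen by rule lie on both sides.

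The 8 probe sets with shared probes had both ced1 signals above both WT signals in 8 of 8 cases. This held for 10 of the 23 others, with 1 below and 12 overlapping. Over the whole array the share with both ced1 signals above was 32.7% for the 935 probe sets with shared probes and 34.6% for the rest. Apart from those named above, the shared ones were 244910_s_at, with 4.8 and 22.7 in WT and 45 and 66.1 in ced1, 244915_s_at, with 7.6 and 2.9 against 8.4 and 30.6, and 244923_s_at, with 14.5 and 39 against 67.6 and 67.1. All of these were under the limit for a test, and none passed without the filter (adjusted p = 0.0638, 0.271 and 0.105). Without the shared probe sets 2 of 6 tested members were higher, 244906_at and nad4. Over the whole array 3030 of the 13160 tested probe sets without shared probes were higher.

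Of the unshared and unlisted members below the limit, 244924_at was the strongest, with 48.1 and 67.1 in WT and 53.1 and 64.1 in ced1, and its groups overlapped. The last probe set of the block gave 9.1 and 46.9 in WT and 46.4 and 72.3 in ced1, with 1 ced1 signal just under the upper WT signal. The probe set 244918_at gave 24.6 and 15.4 in WT and 36.1 and 31.9 in ced1, without overlap. Those remaining had mean levels (averaged on the log2 scale) between 2.15 and 18.7, where single arrays could jump, as did 244907_at with 1.1 and 4.7 in WT and 34.6 and 1.5 in ced1. The single member with both ced1 signals below both WT signals was 244917_at, at 4 and 2.4 in WT and 2.1 and 1.9 in ced1, near the lowest values of the table.

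Replicates limited what could be tested. WT array 2 was at least 2 times WT array 1 for 13 of the 31 members, and ced1 array 2 was at least 2 times ced1 array 1 for 7. Leaving out WT array 2 raised the number of members called higher from 4 to 8 of 9, and leaving out ced1 array 1 or ced1 array 2 lowered it to 2. The share of all tested probe sets called higher moved the same way, from 23.2% to 32.8% without WT array 2 and to 9.70% and 9.09% without ced1 array 1 or 2. The 2 members called in every one of these fits were 244906_at and AT2G07751. In no fit was a member called lower.

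**Figure D3:**
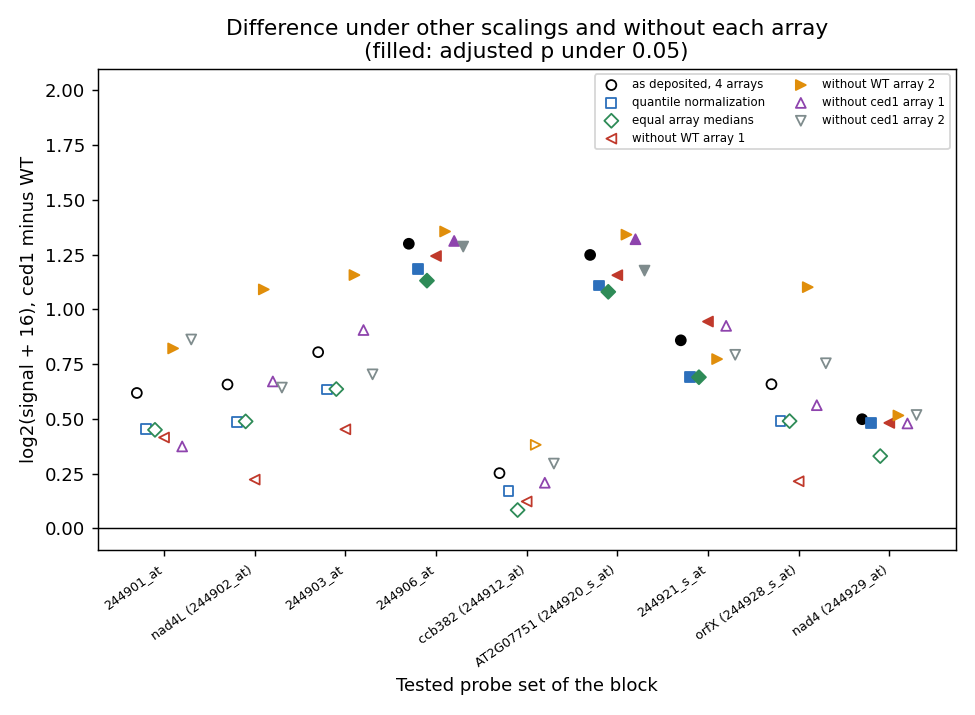
Log2 difference, ced1 minus WT, of the 9 tested members with the deposited scaling, with quantile normalization, with equal array medians and without each array in turn, filled where the adjusted p is under 0.05. All points lie above 0, and 244906_at and AT2G07751 are filled in every setting shown.

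Other mitochondrial genes are named by 16 probe sets outside the block, of which 7 were tested. Of these 7, 2 were higher in ced1 and none was lower, against 23.2% higher and 19.2% lower over all tested probe sets. The gene cox2, a catalytic-core subunit of cytochrome c oxidase, had signals of 517.1 and 685.3 in WT and 1432.7 and 1255.3 in ced1. It rose by 1.15 ± 0.18 on the log2 scale (adjusted p = 0.00278), without overlap. The gene of its partner subunit, cox1, had 290.5 and 306 in WT and 399.7 and 262.4 in ced1, with overlap, and differed by 0.11 ± 0.22 (adjusted p = 0.701), or by -0.054 with equal array medians. Of the complex I genes, nad5 was higher on 257338_s_at at 0.94 ± 0.30 (adjusted p = 0.0402), a call lost without WT array 1 at 0.56, without ced1 array 1 at 0.95, without ced1 array 2 at 0.93, with equal array medians at 0.77 and without the low-signal filter. The genes nad6 and nad9 differed by 0.98 ± 0.37 and 0.54 ± 0.26 and did not pass (adjusted p = 0.0715 and 0.133). For nad1, 257321_at differed by 0.74 ± 0.42 and did not pass (adjusted p = 0.196). These 3 rested on the choice of WT array: without WT array 2, nad9, nad6 and nad1 passed, at 0.77, 1.54 and 1.36 (adjusted p = 0.0292, 0.000697 and 0.00339), and without WT array 1 they did not, at 0.31, 0.41 and 0.11 (adjusted p = 0.333, 0.166 and 0.747). The messenger of nad1 is joined from separate transcripts, and 7 probe sets name it. Mean ced1 signal was the higher one for 257321_at to 257325_at and the lower one for 257327_at and 257329_at. The extremes were 257325_at, with 6.9 and 38.3 in WT and 112.5 and 111.8 in ced1, and 257329_at, with 41.6 and 33.9 in WT and 2.6 and 2.3 in ced1. Both were under the limit for a test. Without the low-signal filter 257325_at passed as higher, at 1.86 ± 0.45 (adjusted p = 0.0340). In the same fit 257329_at passed as lower, at -1.54 ± 0.27 (adjusted p = 0.0124). There 12.2% of all probe sets were higher and 10.4% lower. All signals of 257329_at lay under 50, where a signal cannot be told from absence. For ccb452, now ccmFC, the difference of 0.44 ± 0.21 did not pass (adjusted p = 0.126). Below the limit, ccb206 and nad2 had groups that overlapped, and 257337_at of nad5 had both ced1 signals above both WT signals.

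Nuclear genes of the same organelle went both ways. The respiratory chain and ATP synthase list holds 69 genes, of which 40 have a single-gene probe set. Of its 40 tested probe sets, 6 were higher in ced1, 2 were lower and 32 did not pass. Their median log2 difference was 0.17. Over all tested probe sets 23.2% were higher, 19.2% were lower and the median was 0.07, and the counts of this paragraph stand beside these shares. For complex I, the block's own complex, the subunit genes AT5G52840 and AT3G12260 rose by 0.60 ± 0.12 and 0.70 ± 0.12 (adjusted p = 0.00842 and 0.00463), and AT2G19680, of ATP synthase, by 0.69 ± 0.18 (adjusted p = 0.0220). SDH1-1, the flavoprotein of complex II, fell from 4388.3 and 4417.5 in WT to 2135.4 and 1961.7 in ced1, a difference of -1.10 ± 0.12 (adjusted p = 0.000818). Of 14 alternative respiration genes on the list, 5 have a single-gene probe set and 3 were tested. Of these 3, the external NADH dehydrogenase gene NDB2 was lower at -1.06 ± 0.13 (adjusted p = 0.00125), and NDB1 at 0.48 ± 0.22 and NDC1 at 0.13 ± 0.14 did not pass. CCMH, a nuclear partner of the ccb382 and ccb203 products in cytochrome c maturation, differed by -0.19 ± 0.20 (adjusted p = 0.472), and AT5G46920, a nuclear maturase of mitochondrial introns, by -0.11 ± 0.20 (adjusted p = 0.668). Each was the only tested gene of its list. Of 3 cytochrome c maturation genes 1 has a single-gene probe set, and of 37 mitochondrial RNA factors 8 have one. Of 21 tricarboxylic acid cycle and carrier genes on the list, 9 have a single-gene probe set. Of these 9, all tested, 2 were higher, the succinyl-CoA ligase subunit genes AT5G23250 at 0.89 ± 0.15 and AT2G20420 at 0.58 ± 0.16 (adjusted p = 0.00413 and 0.0247). IDH-V, a subunit gene of isocitrate dehydrogenase, was lower at -0.70 ± 0.18 (adjusted p = 0.0199). Without ced1 array 1 the calls of AT5G52840, AT3G12260, AT2G19680, AT5G23250, AT2G20420 and IDH-V were lost (adjusted p between 0.0541 and 0.259), and those of SDH1-1 and NDB2 were not. Those of AT5G52840, AT2G20420 and IDH-V were also lost without ced1 array 2 (adjusted p between 0.128 and 0.194). With equal array medians those of AT5G52840, AT2G19680 and AT2G20420 were lost (adjusted p = 0.0502, 0.0611 and 0.0673). Of 9 mitochondrial stress reporters on the list, 4 have a single-gene probe set and 2 were tested. These 2, AT2G21640 and AT1G05060, did not pass, at 0.012 ± 0.18 and -0.096 ± 0.17.

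Plastid genes, the other organelle genome on the array, are named by 69 single-gene probe sets, of which 65 were tested. Against 23.2% higher and 19.2% lower over all tested probe sets, 5 of the plastid ones were higher, 1 was lower and 59 did not pass. None of these calls held without ced1 array 1, and 27 were higher without WT array 2. Their median difference was 0.13. Both ced1 signals lay above both WT signals for 18 of the 69 and below for 5, against 34.5% and 27.4% of all probe sets. The difference between the organelles was not tested. As a check of the labelled tissue, LHCB4.1, a leaf antenna gene, lay between 16745 and 20661.6 and PYK10, a root myrosinase gene, between 5868.6 and 9611.5. The root hair expansin genes were weak, with EXPA18 between 129.8 and 178.1 and EXPA7 between 46.3 and 126.5, the latter under the limit for a test. Of the 7 genes of that check 5 have a named probe set and 4 were tested: LHCB4.2 was higher in ced1 at 2.05 ± 0.48, PYK10 was lower at -0.64 ± 0.11, and LHCB4.1 and EXPA18 did not pass. The signals of LHCB4.2 were 2431.5 and 8395.7 in WT, far apart, and 18849.8 and 18824.5 in ced1. The part of a shift between shoot and root RNA in the mitochondrial differences was not tested.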

How the data were processed

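The deposited intensity values are 1 linear signal per probe set and array, made by the authors with MAS5 per the submitters' processing notes. For its version and scaling target, the sources used here give nothing. Means trimmed at the 2nd and 98th percentile ran from 494.4 to 495.7 and medians from 156.3 to 187.5, so the arrays share a trimmed mean and not a distribution. Depth does not apply to arrays, and their number limits the precision. Groups and replicate numbers came from the titles. Nothing says how the replicates were grown apart or names a batch. The p-values thus measure the spread between these samples, which the fit draws toward that of other probe sets.

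The fit used log2(signal + 16), genotype as its only factor and limma 3.58.1 under R 4.3.3 (lmFit, then eBayes with an intensity trend). Probe sets under the 40th percentile of mean log2 signal (9098) were left out, and p was adjusted over 13648 by Benjamini-Hochberg at 0.05. To the 2 residual degrees of freedom of each probe set, eBayes added a median of 5.15 prior ones, drawn from the tested probe sets. An exact permutation test of 2 against 2 arrays cannot go below p = 0.333 (two-sided). In simulated arrays of this comparison 200 probe sets were changed and 13648 were tested. There 12.9% of changes of 1 on the log2 scale and 73.8% of changes of 2 were called, with 3 false calls. The data gave far more calls, 3161 higher and 2626 lower, so the adjustment was stricter in the simulation. These rates are thus not the power of the real comparison.

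The block is the probe sets numbered 244901 to 244931. The probe table gives 1 gene for 13513 probe sets. Mitochondrial genes outside the block were found through symbols of the mitochondrial genes in the TAIR10.1 table, plastid genes through gene IDs, since the numbers 244932 to 245050 also hold mitochondrial and nuclear genes. Members, lists and tests were chosen with earlier results of these data known. Any member and any other mitochondrial probe set could be named, and some weak ones are given only as a group. From each nuclear list up to 4 tested genes of largest difference were named. Alternatives tried were other offsets, filters and scalings, no trend, a replicate block and leaving out each array. No sequences were used here.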

Additional observations from a re-analysis of the deposited data

How the results depend on the processing

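The 4 higher members of the block numbered 4 also with offsets of 1 and 64, with quantile normalization and without the filter (where AT2G07674 replaced 244921_s_at), 3 with equal array medians, 5 without an intensity trend (244903_at added) and 6 with the replicate block, and none was lower in any setting. Fewer were higher with the 60th percentile filter, 1 of 2 tested, and without shared probe sets, 2 of 6, a setting added once the data had been seen. The share of all tested probe sets called higher moved too. It was 22.9% and 23.7% with offsets of 1 and 64, 22.4% with quantile normalization and 12.2% without the filter. With equal array medians it was 16.2%, without a trend 22.1%, with the replicate block 26.4% and with the 60th percentile filter 24.3%. These shares also stand beside the plastid and nuclear counts below. Leaving out 1 array at a time gave 2 to 8 higher members. The median difference of the block was 0.50 with offset 64, 0.38 with the 60th percentile filter, 0.49 with quantile normalization, 0.49 with equal array medians, and between 0.45 and 1.09 without each array. Equal array medians moved the median of all tested probe sets from 0.07 to -0.09. The cause of these changes was not tested, apart from the fewer members that a stricter filter leaves.

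Plastid genes were higher for 3 without the filter, 2 with the 60th percentile filter, 14 with the replicate block and 0 to 27 without each array, and lower for 2 with equal array medians and 0 to 7 without each array. Nuclear mitochondrial genes, 8 higher and 4 lower, were higher for 2 with equal array medians and for 0 to 17 without each array, and lower for 2 to 9. Mitochondrial probe sets outside the block were higher for 1 with the 60th percentile filter, 1 with equal array medians and 1 to 5 without each array, and 1 was lower without the filter. All tested probe sets ranged from 1240 to 4475 higher and from 1316 to 3372 lower without each array.

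Signs turned for genes that had not passed: AT2G21640 at -0.13 with quantile normalization and -0.16 with equal array medians, and NDC1 at -0.042 and cox1 at -0.054 with equal array medians. When 1 array was left out, cox1 ranged from -0.17 to 0.40, AT2G21640 from -0.082 to 0.11, AT5G46920 from -0.28 to 0.052 and AT1G05060 from -0.20 to 0.0045.

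With the replicate block, the first probe set of the block (adjusted p = 0.0397) and 244903_at (adjusted p = 0.0157) also passed, and so did nad6 (adjusted p = 0.00894). Same-numbered arrays share only a number, and their deviations correlated at 0.091 across tested probe sets. Where an array was left out, the lone one is taken to vary as the other genotype does.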
